A study of Mus musculus with 9 samples.

Results

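The genes described here are the 7 of the endothelin system: the peptide genes Edn1, Edn2 and Edn3, the receptor genes Ednra and Ednrb, and the genes of the converting enzymes, Ece1 and Ece2. They were taken by symbol from a table of 25108 genes and gene models, and each of the 7 had 1 entry. The table gave FPKM values (fragments scaled to gene length and to the mapped fragments of the library) for 9 retinal libraries from C57BL/6 mice at postnatal day 17, with 3 libraries per group. Wild-type mice kept in room air are called RA WT. Wild-type mice with oxygen-induced retinopathy are called OIR WT, and mice with the same retinopathy and the genotype IL-19 KO are called OIR KO. In the oxygen-induced retinopathy model, young mice breathe high oxygen, lose part of the retinal vessels, and form new vessels once back in room air, where the retina is hypoxic. The labels give neither the oxygen schedule nor the knockout allele, and there is no room air group with the knockout here, which leaves the 2 retinopathy groups for the comparison of genotypes.

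Endothelins are short vasoactive peptides cut in steps from longer precursors, the last step being made by the endothelin converting enzymes. They act on the receptors ETA (gene Ednra), which contracts smooth muscle and pericytes, and ETB (gene Ednrb), which sits on endothelium and glia. ETA binds endothelin 1 and endothelin 2 better than endothelin 3, while ETB binds all of them alike. In the retina, endothelin 1 is made by vessels, and endothelin 2 is known as a signal from stressed photoreceptors to Müller cells, glia that span the retina.

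The stretches that code the mature peptides are shown because the 3 peptide genes are alike here while their mRNA levels moved differently. Each was read from the GENCODE M21 transcript of the gene, 63 bases or 21 codons long, with the 4 cysteine codons that form the disulphide bridges in capitals.
Edn1: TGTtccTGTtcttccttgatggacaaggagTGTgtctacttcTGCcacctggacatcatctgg
Edn2: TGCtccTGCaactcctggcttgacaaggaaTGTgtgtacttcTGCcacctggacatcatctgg
Edn3: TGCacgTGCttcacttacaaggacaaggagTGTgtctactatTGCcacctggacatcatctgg
Edn1 and Edn2 differed at 10 of these 63 bases, and 3 of the 21 codons named another residue. Edn3 differed from Edn1 at 13 bases and from Edn2 at 15 bases, with 6 codons naming another residue in either case. 

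Of the 7 genes, 6 passed the filter of at least 0.5 FPKM in at least 3 libraries, and these 6 reached 0.5 FPKM in all 9 libraries, so none passed through 1 group alone. Edn3 stayed under 0.5 FPKM in every library and was not tested. A linear model (limma, on log2(FPKM + 0.5)) was fitted to the 15678 genes that passed. A gene with a Benjamini-Hochberg adjusted p under 0.05 over all of them was called. Log2 differences are given with a standard error (SE), and values below are mean FPKM ± SD with n = 3 libraries. On this log scale the change of a gene with low FPKM is understated.

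In retinopathy, Edn2 rose more than any other gene tested, both receptor genes rose in the wild type, and neither converting enzyme gene was called. In OIR WT against RA WT, 3 of the 6 tested genes rose and 0 fell, where 8.04% of all genes rose and 7.92% fell. The median log2 difference of the 6 was 0.75, against 0.02 over all genes. These genes were chosen with earlier results of these data known, so the counts and medians are descriptive. The count of risen genes went to 1, Edn2 alone, without RA WT 1 or 2 or OIR WT 1 or 3, and without OIR WT 2 Ece2 was called lower. In OIR KO against RA WT, 2 of the 6 rose and 0 fell, where 4.75% of all genes rose and 5.69% fell, with a median of 0.55 against 0.02. The 2 risen were called without each library in turn, and without OIR KO 3 Ece2 was called lower. These comparisons share the RA WT libraries. In OIR KO against OIR WT, limma called 0 of the 6 genes in either direction, where 0.0574% of all genes were called higher and 0.0765% lower. An unadjusted limma p under 0.05 was found for 0 of the 6 genes and for 1554 of all 15678. Both counts of 0 in 6 are near their background.

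**Figure D1:**
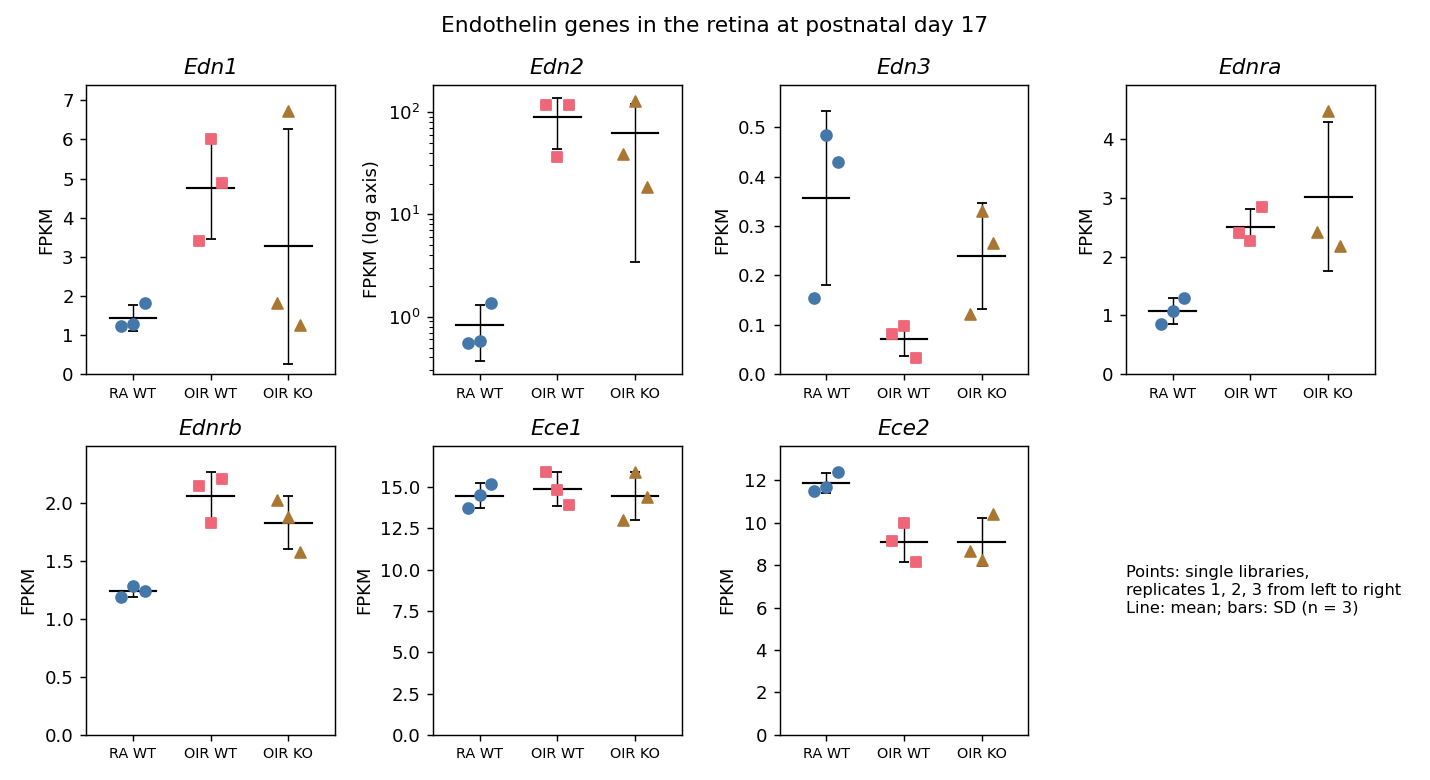
FPKM of each of the 7 genes in each library, by group. Points are single libraries, horizontal lines are means and bars are SD (n = 3). The Edn2 axis is logarithmic. Edn2 lay between 18.4 and 128 FPKM in the retinopathy libraries, all above the 3 room air libraries, while Ece1 stayed between 13.0 and 15.9 FPKM throughout.

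Some facts of the libraries bear on these genes. The targeted gene Il19 was listed at 0 in all libraries except RA WT 1 (0.0406 FPKM), so it did not check the genotype labels. Relative depth, read from the smallest values of 4521 genes with 1 transcript, lay between 0.864 and 1.14, and absolute depth is unknown. Y-linked genes were at 0 in 2 of the 9 libraries, so males and females were mixed. Nothing in the labels says that the samples of a group came from separate animals, and p-values rest on the spread among them, which may be technical. All 14 rod photoreceptor markers were above 0 in every library and summed to 13000 to 17300 FPKM. The summed level of 8 lens markers was highest in RA WT 1 (26.5 FPKM) and OIR KO 2 (17.0 FPKM), with no other library above 6.06 FPKM.

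Edn2 was at 0.555, 0.577 and 1.37 FPKM in RA WT 1 to 3, and at 118, 36.5 and 116 FPKM in OIR WT 1 to 3. Its values were 38.8, 128 and 18.4 FPKM in OIR KO 1 to 3. Every retinopathy library lay above every room air library, and within retinopathy both genotypes had high libraries (118, 116 and 128 FPKM) and low ones (36.5, 38.8 and 18.4 FPKM). The RA WT mean was 0.835 ± 0.467 FPKM and the OIR WT mean 90.1 ± 46.4 FPKM, a 108-fold ratio of means (log2 5.96, SE 0.72, limma adjusted p = 0.00293). In OIR KO it was 61.9 ± 58.5 FPKM (log2 5.15 against RA WT, SE 0.72, limma adjusted p = 0.00618). By log2 difference it ranked 1 of 15678 in both comparisons. Among all tested genes, its mean level moved from percentile 11.3 in RA WT to percentile 96.5 in OIR WT. Both calls held when any 1 library was left out, with adjusted p from 0.00498 to 0.0169 in OIR WT and from 0.00540 to 0.0278 in OIR KO.

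The level of Edn2 within retinopathy differed by 6.97 times between the highest and the lowest OIR KO library and by 3.22 times within OIR WT. The OIR KO and OIR WT values overlapped (log2 -0.80, SE 0.72, limma adjusted p = 0.768). The 95% interval of that difference ran from -2.45 to 0.84, which on the fold scale is 0.183 to 1.79 times the wild-type level. Single libraries moved the difference from -1.55 (without OIR KO 2) and -1.36 (without OIR WT 2) to -0.17 (without OIR KO 3), with -0.52 and -0.53 without OIR WT 1 and OIR WT 3. Red blood cell genes differed between the same libraries. The 6 erythrocyte markers, led by the globin genes Hbb-bs and Hba-a1, summed to 1170, 512 and 1430 FPKM in OIR WT 1 to 3 and to 112, 1070 and 113 FPKM in OIR KO 1 to 3, against 82.5 to 158 FPKM in RA WT. The 3 retinopathy libraries with the most Edn2 (OIR WT 1, OIR WT 3 and OIR KO 2) were also the 3 highest in these markers. They were also the 3 highest in the summed level of 8 astrocyte markers, at 317, 371 and 375 FPKM against 226 to 255 FPKM in the other retinopathy libraries. Gfap, which also marks reactive Müller cells, is among these astrocyte markers, so their sum does not stand for astrocytes alone. The 12 pericyte and smooth muscle markers were highest in the same 3 libraries by a small margin, at 113, 161 and 147 FPKM against 107, 104 and 86.3 FPKM. The other marker lists did not share these 3 highest libraries. The 10 markers of retinal pigment epithelium and choroid were lowest in the same libraries. They summed to 44.0, 54.3 and 75.7 FPKM in OIR WT 1, OIR WT 3 and OIR KO 2. The other retinopathy libraries had 88.4 to 135 FPKM, and room air 74.0 to 139 FPKM. OIR KO 1 lay above OIR WT 1 in endothelial markers (172 against 144 FPKM) and in microglia and macrophage markers (59.5 against 59.2 FPKM). Rod markers were lowest in OIR KO 2 (13000 FPKM) and OIR WT 1 (13300 FPKM). In OIR KO 1 and OIR KO 3 the erythrocyte sum lay within the range of room air while Edn2 was at 38.8 and 18.4 FPKM. The part of blood, astrocytes, mural cells or pigment epithelium and choroid in the spread of Edn2 was not tested.

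Rod markers, from the cells thought to make Edn2 under stress, were not called. Of 14 rod markers, limma called 0 in OIR WT and 0 in OIR KO against RA WT (medians of -0.03 and -0.02). Of all genes, 8.04% rose and 7.92% fell in OIR WT, and 4.75% and 5.69% did in OIR KO. A count of 0 in 14 is near this background. Set against the summed rod markers, Edn2 was 0.00359 to 0.00853% of that sum in RA WT, 0.243 to 0.883% in OIR WT and 0.125 to 0.992% in OIR KO. In bulk retina, a change in the number of cells of a type and a change in RNA per cell cannot be told apart.

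Edn1, made by endothelium and a strong constrictor through ETA, was at 1.23, 1.27 and 1.82 FPKM in RA WT and at 3.40, 6.00 and 4.88 FPKM in OIR WT. In OIR KO it was at 1.81, 6.72 and 1.26 FPKM. The OIR WT libraries lay above all RA WT libraries, and 2 of the 3 OIR KO libraries lay within the range of room air, with OIR KO 2 the highest of all 9. The mean was 1.44 ± 0.329 FPKM in room air, 4.76 ± 1.30 in OIR WT and 3.26 ± 3.01 in OIR KO. Edn1 did not pass the test in OIR WT (log2 1.42, SE 0.47, limma adjusted p = 0.0762), nor in OIR KO against RA WT (log2 0.68, SE 0.47, adjusted p = 0.393). When limma was fitted to the RA WT and OIR WT libraries alone, without the widely spread OIR KO values, Edn1 was called (log2 1.42, adjusted p = 0.00428). Without OIR KO 2, the log2 difference of OIR KO against RA WT was 0.07. Between the genotypes in retinopathy the log2 difference was -0.74 (SE 0.47, 95% interval -1.81 to 0.33, limma adjusted p = 0.659). It was -1.35 without OIR KO 2 (adjusted p = 0.0703) and -0.33 without OIR KO 3 (adjusted p = 0.906).

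Markers of endothelium, the main source of Edn1 in vessels, went both ways. The 14 markers summed to 108 to 139 FPKM in room air, 114 to 150 FPKM in OIR WT and 146 to 194 FPKM in OIR KO. In OIR WT 4 of the 14 rose and 3 fell (8.04% and 7.92% of all genes), with a median log2 difference of 0.24. In OIR KO 6 rose and 2 fell (4.75% and 5.69% of all genes), with a median of 0.67. The log2 difference of Edn1 there was 0.68, but 0.07 without OIR KO 2. The part of endothelial cells in the level of Edn1 was not tested. Edn1 was 0.919 to 1.33% of the endothelial sum in RA WT, and 2.37, 5.25 and 3.26% of it in OIR WT 1 to 3. The ratio in OIR KO was 1.05, 3.47 and 0.863%, so OIR KO 1 and OIR KO 3 were near or within the room air range on this measure also.

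Edn3, the peptide known for its part in neural crest development through ETB, was at 0.155, 0.485 and 0.429 FPKM in RA WT, at 0.0812, 0.0975 and 0.0323 FPKM in OIR WT and at 0.122, 0.331 and 0.265 FPKM in OIR KO. The OIR WT libraries were lowest, without overlap with either of the other groups. At this level the values rest on few fragments. With no filter on low values, 21267 genes were tested and Edn3 was not called in OIR WT against RA WT (log2 -0.57, SE 0.17, limma adjusted p = 0.0682) or in OIR KO against OIR WT (log2 0.37, SE 0.17, adjusted p = 0.575).

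Edn2 went from a minor part to the major part of the peptide mRNA. Within a library FPKM is per length, so levels of genes can be set side by side. Edn2 made up 28.7, 24.7 and 37.9% of the summed FPKM of the peptide genes in RA WT 1 to 3. Those room air shares rest on low sums, of 1.94, 2.34 and 3.62 FPKM. In OIR WT the shares were 97.1, 85.7 and 95.9%, and in OIR KO 95.3, 94.8 and 92.4%. The OIR WT mean was 92.9 ± 6.3% against 30.4 ± 6.8% in RA WT (n = 3, exact two-sided permutation p = 0.1, the smallest that 3 against 3 libraries allow; adjusted p = 0.15 over 9 share comparisons). OIR KO at 94.1 ± 1.6% differed from OIR WT by 1.2 percentage points (n = 3, exact permutation p = 1). The share was alike in OIR KO 2 and OIR KO 3, where the summed level of the peptide genes was 136 and 20.0 FPKM.

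**Figure D2:**
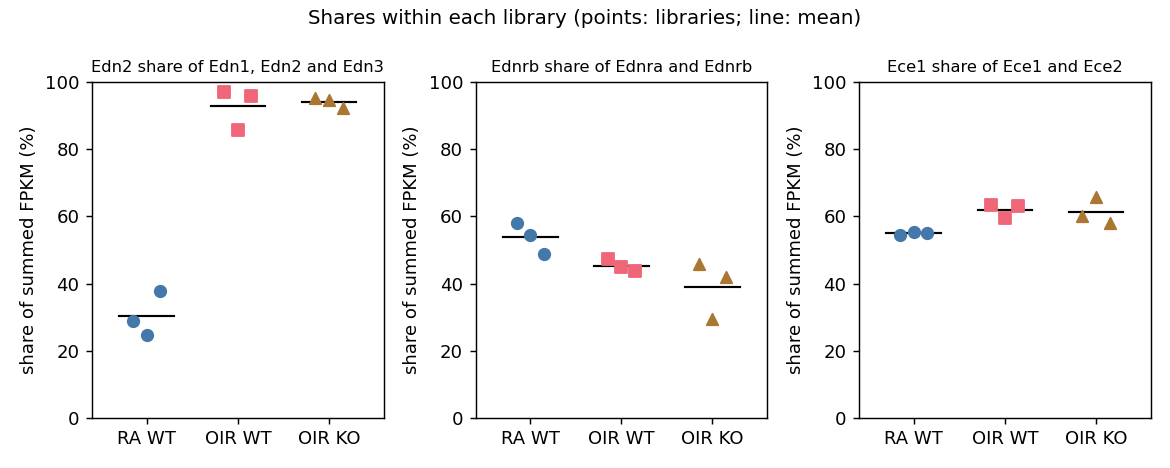
Share of Edn2 among the peptide genes, of Ednrb among the receptor genes and of Ece1 among the converting enzyme genes, as percent of summed FPKM in each library. Points are libraries and lines are group means. The Edn2 share lay between 24.7 and 37.9% in room air and between 85.7 and 97.1% in retinopathy.

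Ednra, the receptor of smooth muscle and pericytes, was at 0.854, 1.07 and 1.30 FPKM in RA WT 1 to 3 and at 2.40, 2.26 and 2.85 FPKM in OIR WT 1 to 3. In OIR KO its values were 2.42, 4.48 and 2.18 FPKM. All retinopathy libraries lay above all room air libraries, and OIR KO 2 was the highest. It rose from 1.07 ± 0.222 FPKM in RA WT to 2.50 ± 0.308 in OIR WT (log2 0.94, SE 0.23, limma adjusted p = 0.0231) and to 3.03 ± 1.27 in OIR KO (log2 1.12, SE 0.23, adjusted p = 0.0159). The OIR WT call was lost when RA WT 1 or 2 or OIR WT 1 or 3 was left out (adjusted p = 0.0631 to 0.0804) and when Y-linked expression was a covariate (0.0638). The OIR KO call held without each library in turn.

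Markers of pericytes and smooth muscle moved with Ednra. The 12 markers, led by Rgs5 and the smooth muscle actin gene Acta2, summed to 46.1 to 60.2 FPKM in room air, 107 to 161 FPKM in OIR WT and 86.3 to 147 FPKM in OIR KO. Of the 11 markers tested, 7 rose in OIR WT and 4 in OIR KO, and 0 fell, with medians of 0.86 and 0.89. Of all genes, 8.04% rose and 7.92% fell in OIR WT, and 4.75% and 5.69% did in OIR KO. At most 1 of the 12 was at 0 in any library. Set against that sum, a ratio chosen after the values were seen, Ednra was at 1.85, 1.78 and 2.44% in RA WT and at 2.12, 2.11 and 1.77% in OIR WT. These ranges overlapped. The ratio was 2.32, 3.06 and 2.53% in OIR KO. The part of mural cells in the level of Ednra was not tested.

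Ednrb, the receptor of endothelium, astrocytes and Müller glia, was at 1.19, 1.28 and 1.24 FPKM in RA WT and at 2.15, 1.83 and 2.21 FPKM in OIR WT. In OIR KO it was at 2.03, 1.88 and 1.58 FPKM. Every retinopathy library lay above every room air library by a small margin. Ednrb rose from 1.24 ± 0.0478 FPKM in RA WT to 2.06 ± 0.201 in OIR WT (log2 0.56, SE 0.13, limma adjusted p = 0.0205). It was at 1.83 ± 0.229 in OIR KO (log2 0.42 against RA WT, SE 0.13, adjusted p = 0.0721). The OIR WT call was narrow, and it was lost when any library other than OIR WT 2 was left out (adjusted p = 0.0504 to 0.0796). Between the genotypes in retinopathy, Ednra differed by log2 0.18 (95% interval -0.33 to 0.69, limma adjusted p = 0.846) and Ednrb by -0.14 (95% interval -0.44 to 0.16, adjusted p = 0.780).

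Markers of the glia that carry ETB went in several directions in OIR WT, where 8.04% of all genes rose and 7.92% fell. Of 13 Müller glia markers, led by the glutamine synthetase gene Glul, 6 fell and 3 rose in OIR WT (median -0.87), and their sum was 2510 to 3320 FPKM in room air, 1940 to 2170 in OIR WT and 2440 to 2620 in OIR KO. The astrocyte markers include Gfap, which also marks reactive Müller cells. Of the 7 tested, 4 rose and 1 fell in OIR WT (median 0.69). The astrocyte markers summed to 218 to 265 FPKM in room air, 255 to 371 in OIR WT and 226 to 375 in OIR KO. The part of these cells in the level of Ednrb was not tested. Ednrb made up 58.1, 54.4 and 48.9% of receptor mRNA in RA WT, 47.3, 44.8 and 43.7% in OIR WT and 45.7, 29.5 and 42.0% in OIR KO. Both retinopathy groups lay below all room air libraries on this share (n = 3, exact two-sided permutation p = 0.1 for each, adjusted p = 0.15). The OIR KO and OIR WT shares overlapped (n = 3, exact permutation p = 0.3, adjusted p = 0.386).

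Neither converting enzyme gene was called in any comparison. Ece1, the main converting enzyme of vessels, was at 13.7, 14.5 and 15.2 FPKM in room air, 15.9, 14.8 and 13.9 FPKM in OIR WT and 13.0, 15.9 and 14.4 FPKM in OIR KO. The groups overlapped, and the log2 difference of OIR WT against RA WT was 0.04 with a 95% interval of -0.18 to 0.25 (SE 0.10, limma adjusted p = 0.841). Ece2, a related enzyme abundant in neurons, was at 11.5, 11.7 and 12.4 FPKM in room air, 9.13, 10.0 and 8.14 FPKM in OIR WT and 8.65, 8.27 and 10.4 FPKM in OIR KO. All 6 retinopathy libraries lay below the room air libraries. The log2 difference was -0.37 in both retinopathy groups (SE 0.11), just short of the threshold in OIR WT (limma adjusted p = 0.0503) and not called in OIR KO (adjusted p = 0.0627). Ece2 was called without OIR WT 2 (adjusted p = 0.0434) and without OIR KO 3 (0.0315). The Ece1 share of the summed FPKM of both genes was 54.4 to 55.4% in RA WT, 59.6 to 63.5% in OIR WT and 58.0 to 65.8% in OIR KO (n = 3, exact two-sided permutation p = 0.1 for each against RA WT, adjusted p = 0.15).

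**Figure D3:**
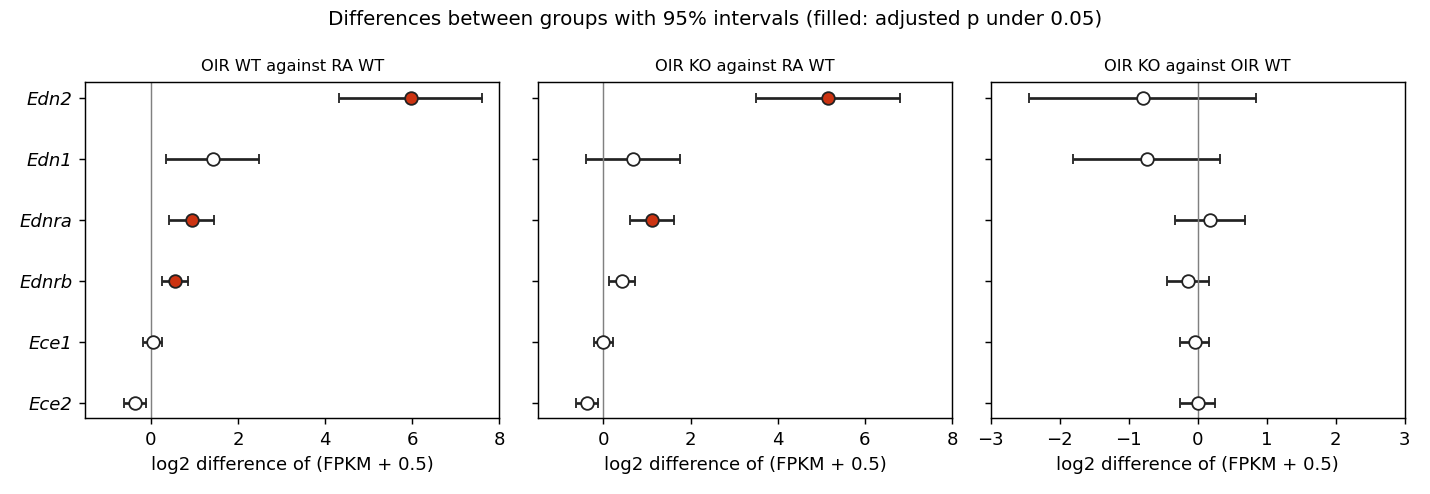
Log2 difference of (FPKM + 0.5) for the 6 tested genes in each comparison, with 95% intervals. Filled points passed an adjusted p of 0.05. Edn2 stands at 5.96 and 5.15 against room air, while every interval of OIR KO against OIR WT spans 0.

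Groups did not overlap for most of the tested genes. In OIR WT against RA WT, 4 of the 6 were higher without overlap and 1 was lower, where 17.8% and 17.2% of all genes were. In OIR KO against RA WT, 3 were higher and 1 was lower without overlap, where 17.3% and 15.4% of all genes were. Between OIR KO and OIR WT, 0 of the 6 were free of overlap in either direction, where 9.73% of all genes were higher and 7.98% lower.

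The order of the mRNA levels changed as well. In RA WT it ran from Ece1 (14.5 FPKM) and Ece2 (11.9) down to Edn1 (1.44), Ednrb (1.24), Ednra (1.07), Edn2 (0.835) and Edn3 (0.356). The library ranges of Edn1 and Ednrb overlapped there, as did those of Ednrb and Ednra and of Ednra and Edn2, while the other neighbours were apart. In OIR WT the order was Edn2 (90.1 FPKM), Ece1 (14.9), Ece2 (9.10), Edn1 (4.76), Ednra (2.50), Ednrb (2.06) and Edn3 (0.0703), and no neighbours overlapped. The order of means in OIR KO was the same, but the place of Edn1 there came from OIR KO 2 (6.72 FPKM). In OIR KO 1 and OIR KO 3, Edn1 (1.81 and 1.26 FPKM) lay below both Ednra (2.42 and 2.18) and Ednrb (2.03 and 1.58).

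The start regions of the genes that rose are shown because these genes rose together in OIR WT. The 250 bases before the RefSeq start were read from GRCm38.p6 and searched on both strands for the hypoxia response element cores ACGTG and GCGTG, the STAT site TTCNNNGAA and the AP-1 site TGANTCA, with matches in capitals. The cores ACGTG and GCGTG overlap in the letters CGTG.
Edn2, chr4:120160956-120161205, plus strand: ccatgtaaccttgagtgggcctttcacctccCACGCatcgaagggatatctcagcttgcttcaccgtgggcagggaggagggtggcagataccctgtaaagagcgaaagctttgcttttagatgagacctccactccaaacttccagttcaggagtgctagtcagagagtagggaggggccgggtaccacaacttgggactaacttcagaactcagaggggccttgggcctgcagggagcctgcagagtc
Ednra, chr8:77724453-77724702, minus strand: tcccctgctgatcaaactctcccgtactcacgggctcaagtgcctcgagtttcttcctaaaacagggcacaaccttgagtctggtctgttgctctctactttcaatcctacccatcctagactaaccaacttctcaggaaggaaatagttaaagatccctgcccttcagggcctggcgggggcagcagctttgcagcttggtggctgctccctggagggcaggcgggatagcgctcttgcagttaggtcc
Ednrb, chr14:103843702-103843951, minus strand: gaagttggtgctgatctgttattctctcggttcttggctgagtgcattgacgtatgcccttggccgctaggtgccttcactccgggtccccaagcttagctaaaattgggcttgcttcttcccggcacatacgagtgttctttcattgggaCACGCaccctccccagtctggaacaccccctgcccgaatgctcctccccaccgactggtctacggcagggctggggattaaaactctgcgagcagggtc
Edn2 held GCGTG once, on the opposite strand, at -219 to -215 from the start, and Ednrb held it once, also on the opposite strand, at -99 to -95. Ednra held no match to the 4 motifs in this window. Among the genes not called or not tested, Edn1 and Edn3 held no match to the 4 motifs, while both converting enzyme genes held these cores. Ece1 had 6 matches over 3 of its 4 promoters and Ece2 had 1, of ACGTG. Some Ece1 matches are the same bases counted again. Its promoters 1 and 2 overlap and share a match, and CACGTG in promoter 3 matches on both strands. Of 27025 promoters of the same length, 16.6% held ACGTG, 28.2% GCGTG, 7.18% the STAT site and 6.87% the AP-1 site, so a single match is common. A match is a string of letters and not a measured site.

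By the GENCODE M21 annotation of GRCm38, Edn2 (ENSMUSG00000028635) lies on chromosome 4 from 120161206 to 120167360 on the plus strand and overlaps no other gene. Edn1 (ENSMUSG00000021367) lies on chromosome 13 from 42301476 to 42307990 on the plus strand. Ednra (ENSMUSG00000031616) lies on chromosome 8 from 77663031 to 77724464 and Ednrb (ENSMUSG00000022122) on chromosome 14 from 103814625 to 103844402, both on the minus strand. Edn3 (ENSMUSG00000027524, chromosome 2, 174760619 to 174784042) and Ednrb overlap no other gene. Ece1 (ENSMUSG00000057530) lies on chromosome 4 from 137862237 to 137965229 on the plus strand. Edn1, Ednra and Ece1 each overlap 1 non-coding gene on the opposite strand, whose reads cannot be told apart without strand information. Ece2 (ENSMUSG00000022842, chromosome 16, 20629828 to 20646485, plus strand) overlaps the protein-coding gene Gm49333 on the same strand, which was at most 0.0295 FPKM, so how reads were divided between them is uncertain.

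The profile of Edn2 over the 9 libraries was compared with those of other genes. Closeness was the root mean square difference between profiles of log2(FPKM + 0.5) brought to mean 0 and SD 1, among 12752 other genes with a mean of at least 1 FPKM. The nearest was Fn1, fibronectin (0.08), which ranged from 8.60 to 54.2 FPKM, followed by S100a11, a calcium-binding protein (0.104), Capg, an actin-capping protein (0.108), Cspg4, the NG2 proteoglycan of pericytes (0.11) and Sema5b, a semaphorin (0.112). Their likeness rests mostly on the gap between room air and retinopathy. With the mean of each group taken off, the nearest profiles were Tbrg1 (0.091), Pcolce, an enhancer of procollagen processing (0.11), Arpin, an inhibitor of the actin nucleator Arp2/3 (0.123), Fblim1 (0.124) and Bcl3, a regulator of NF-kappaB (0.124). Pcolce was at 118, 40.5 and 115 FPKM in OIR WT 1 to 3 and at 40.3, 136 and 23.6 FPKM in OIR KO 1 to 3, and so was high and low in the same retinopathy libraries as Edn2. Bcl3 was at 35.0, 7.76 and 37.4 FPKM in OIR WT and at 5.56, 32.6 and 2.98 FPKM in OIR KO, with the same libraries high. The points share their libraries, so these values describe likeness only.

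**Figure D4:**
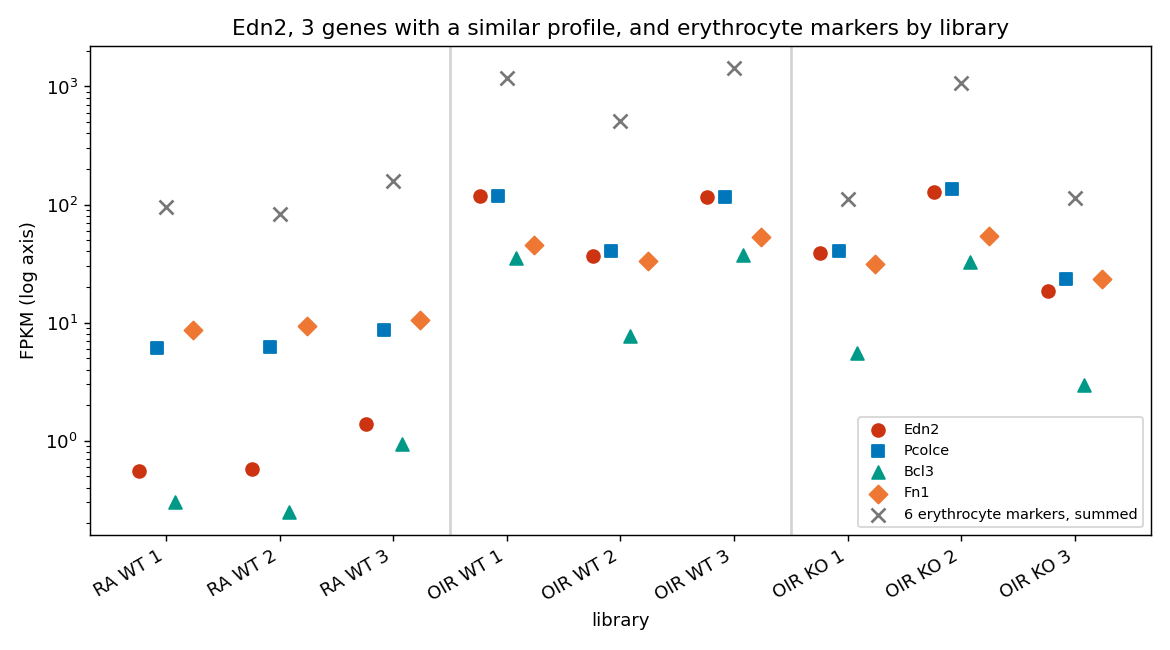
FPKM on a log axis in each of the 9 libraries for Edn2, for Pcolce, Bcl3 and Fn1, whose profiles were close to it, and for the sum of 6 erythrocyte markers. OIR WT 1, OIR WT 3 and OIR KO 2 are the 3 highest retinopathy libraries in each of these series.

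For the receptor genes the nearest profiles over the 9 libraries were less close. Those nearest to Ednra were Igfbp3, an insulin-like growth factor binding protein (0.152), Col4a1, a collagen of basement membranes (0.163), and Ifitm3, an interferon-induced membrane protein (0.164). Those nearest to Ednrb were Fcrls, a microglial gene (0.174), Eva1b (0.193) and Fxyd5 (0.198). Fcrls was at a mean of 0.774 FPKM in room air, 4.11 in OIR WT and 2.50 in OIR KO. Of 10 markers of microglia and macrophages 6 rose in each retinopathy group, where 8.04% of all genes rose in OIR WT and 4.75% in OIR KO. These markers summed to 17.9 to 22.9 FPKM in room air, 53.5 to 71.8 in OIR WT and 44.8 to 62.5 in OIR KO.

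Among the enzymes around the endothelins, a list of 12 genes for cutting precursors and breaking down peptides had 8 tested members. Of these 3 rose and 0 fell in OIR WT, with a median log2 difference of -0.01, where 8.04% of all genes rose and 7.92% fell. Ecel1, a relative of the converting enzymes induced in damaged neurons, rose from 0.135 ± 0.0521 FPKM in RA WT to 2.84 ± 1.55 in OIR WT (log2 2.28, SE 0.39, limma adjusted p = 0.00620). It was at 1.22 ± 0.662 FPKM in OIR KO (log2 1.35 against RA WT, adjusted p = 0.0556). Ctsa, a lysosomal carboxypeptidase able to inactivate endothelin 1, rose from 29.4 ± 4.22 FPKM to 46.9 ± 1.97 in OIR WT (log2 0.67, adjusted p = 0.00501) and to 39.5 ± 3.25 FPKM in OIR KO (log2 0.42, adjusted p = 0.0388). Mmp2, a gelatinase, rose from 5.82 ± 0.490 to 8.88 ± 1.09 FPKM in OIR WT (log2 0.56, adjusted p = 0.0181), and was just short of the threshold in OIR KO (8.24 ± 1.15 FPKM, adjusted p = 0.0501). Furin, the protease of the first cut, did not pass the test (21.8 FPKM in room air, 21.0 in OIR WT and 22.5 in OIR KO) and was named after its values were seen. In OIR KO 1 of the 8 rose and 1 fell (all genes 4.75% and 5.69%), the fallen gene being Pcsk6, a furin-like protease (log2 -0.52, adjusted p = 0.0212). The Mmp2 call was lost without RA WT 3, OIR WT 1 or OIR WT 3 (adjusted p = 0.0591 to 0.0781), the Ctsa call in OIR KO without any library except RA WT 3 (0.0551 to 0.120), and the count of fallen genes in OIR KO was 0 without RA WT 3, OIR KO 1 or OIR KO 2.

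ETA and ETB act through G proteins of several classes on phospholipase C, calcium release and protein kinase C. Of 31 tested genes of this signalling list, 5 rose and 5 fell in OIR WT (median 0.13), and 2 rose and 5 fell in OIR KO (median 0.15). Of all genes, 8.04% rose and 7.92% fell in OIR WT, and 4.75% rose and 5.69% fell in OIR KO, so the 2 risen in OIR KO are near the background. Myl9, the regulatory light chain of smooth muscle myosin, rose from 11.3 ± 2.66 to 27.8 ± 4.95 FPKM in OIR WT (log2 1.28, SE 0.21, limma adjusted p = 0.00550), and was at 18.2 ± 3.88 FPKM in OIR KO (adjusted p = 0.0713). Rgs2 and Rgs5, which shorten G protein signals, rose in both: Rgs2 from 13.8 ± 2.29 FPKM to 28.9 ± 4.71 in OIR WT (adjusted p = 0.00339) and 23.6 ± 3.15 in OIR KO (adjusted p = 0.0144), and Rgs5 from 29.2 ± 4.16 to 53.4 ± 9.03 (adjusted p = 0.0128) and 59.8 ± 13.4 (adjusted p = 0.00993). Rgs5 is also in the list of mural cell markers. Rgs4 (log2 -0.93 in OIR WT and -1.07 in OIR KO), Prkcb, a protein kinase C gene (log2 -0.81 and -0.87), and Plcb1, a phospholipase C gene (log2 -0.70 and -0.79), fell in both. Prkcb went from 32.4 ± 1.71 FPKM in RA WT to 18.3 ± 0.612 in OIR WT and 17.5 ± 1.62 in OIR KO (limma adjusted p = 0.00123 and 0.00141), with both calls held without each library in turn. The OIR WT count of risen genes went to 3 without RA WT 2 or 3 or OIR WT 1 or 3, and that of fallen genes to 1 without RA WT 3, 2 without RA WT 2 and 3 when any 1 OIR WT library was left out. Single calls lost in this list were Rgs4 in OIR WT without RA WT 2 or RA WT 3 (adjusted p = 0.0523 to 0.0545) and in OIR KO without OIR KO 1 (0.0506). Plcb1 was lost in OIR WT without RA WT 3 or OIR WT 3 (0.0621 to 0.0647) and in OIR KO without RA WT 3, OIR KO 1 or OIR KO 2 (0.0539 to 0.0599), and Rgs2 in OIR KO without RA WT 3 or OIR KO 2 (0.0515 to 0.0569). In OIR KO the fallen count went to 2 without OIR KO 1 and 3 without RA WT 3 or OIR KO 2, and the risen count to 1 without RA WT 3 or OIR KO 2.

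Several genes of the injury signal known to accompany Edn2 in stressed retina rose in the wild type. After photoreceptor damage, Müller glia make leukaemia inhibitory factor (Lif), which acts through the receptor chain gp130 and STAT3, and Edn2 is induced in the same setting. Of 15 genes on this list, all of which were tested, 8 rose and 1 fell in OIR WT (median 1.77), beside 8.04% and 7.92% of all genes. The list was chosen with earlier results of these data known, so its counts and median describe it and test nothing. Bcl3 was at 0.493 ± 0.379 FPKM in room air and rose to 26.7 ± 16.4 (log2 4.55, SE 0.88, limma adjusted p = 0.0131). Cebpd, a transcription factor of acute responses, went up from 3.50 ± 1.43 FPKM to 57.7 ± 28.7 (log2 3.77, SE 0.70, adjusted p = 0.0115), and Socs3, the feedback inhibitor of STAT3, from 1.90 ± 0.316 to 26.7 ± 17.7 FPKM (log2 3.26, SE 0.83, adjusted p = 0.0333). Lif itself, named after its values were seen, rose from a mean of 0.103 FPKM to 2.85 FPKM (log2 2.31, adjusted p = 0.0122). In OIR KO, Bcl3 (13.7 ± 16.4 FPKM, adjusted p = 0.0553), Cebpd (32.2 ± 32.9 FPKM, 0.0528), Socs3 (14.1 ± 16.6 FPKM, 0.172) and Lif (0.945 ± 0.819 FPKM, 0.153) did not pass the test. The fallen gene was Cntfr, the receptor of ciliary neurotrophic factor (log2 -0.53, adjusted p = 0.0292). In OIR KO 2 rose, Stat3 (log2 1.45, adjusted p = 0.0197) and the oncostatin M receptor gene Osmr (log2 1.58, adjusted p = 0.0308), and Cntfr fell (log2 -0.64, adjusted p = 0.0201), with a median of 1.12. Limma called 0 of the 15 between OIR KO and OIR WT, where the median was -0.35.

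The counts of the injury list leaned on single libraries. In OIR WT 8 risen genes became 4 without RA WT 2 and 5 without OIR WT 1. In OIR KO the 2 risen became 5 without OIR KO 3, 1 without OIR KO 1, and 0 when any 1 of the room air libraries was left out. The OIR KO call of Cntfr was lost without RA WT 2, RA WT 3 or OIR KO 1 (adjusted p = 0.0611 to 0.0773). The Socs3 call in OIR WT was lost without every library but OIR WT 2 (adjusted p = 0.0841 to 0.104), that of Bcl3 without RA WT 2 or OIR WT 1 (0.0516 to 0.0521), and that of Cntfr without RA WT 2 or 3 or OIR WT 1 or 3 (0.0877 to 0.0982). The Lif and Cebpd calls held without each library in turn. Gfap, a marker of astrocytes and of reactive Müller cells that is on this list and among the astrocyte markers, went from a mean of 10.6 FPKM in RA WT up to 107 FPKM in OIR WT (limma adjusted p = 0.0240). That call was lost without RA WT 1 or 2 or OIR WT 1 or 3 (0.0728 to 0.0844).

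**Figure D5:**
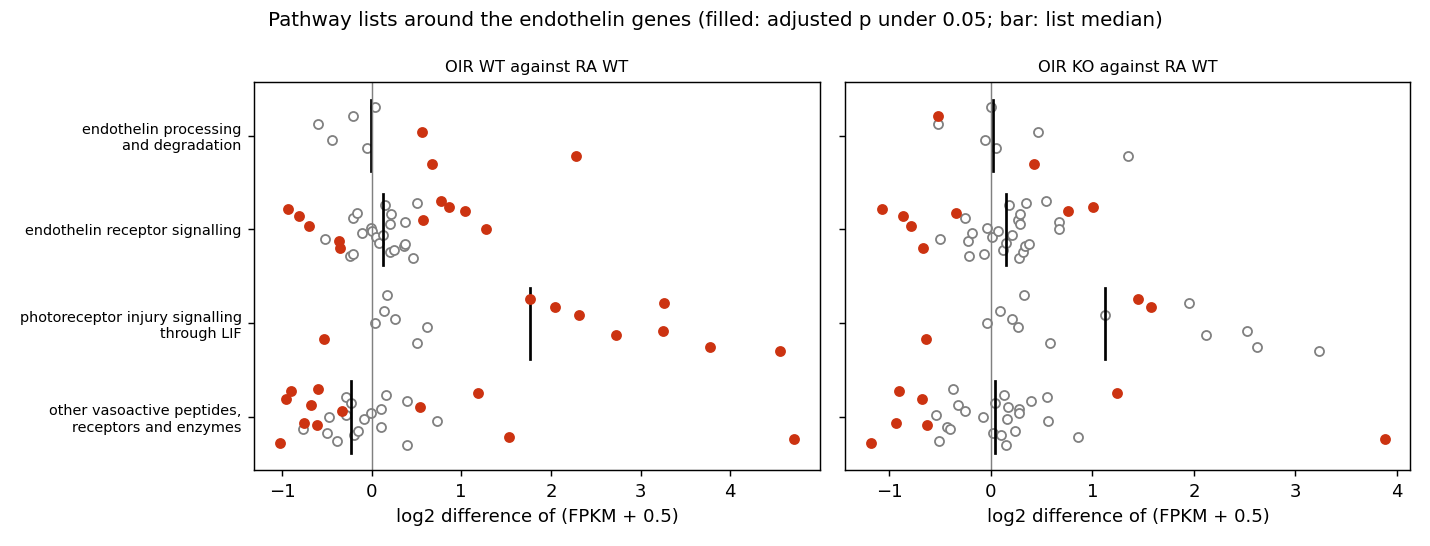
Log2 difference against RA WT of every tested gene of 4 lists around the endothelin genes, for OIR WT (left) and OIR KO (right). Each point is a gene, filled points passed an adjusted p of 0.05, and bars mark list medians. The injury signalling list has a median of 1.77 in OIR WT and 1.12 in OIR KO, and the other medians lie between -0.23 and 0.15. All lists were chosen with earlier results of these data known.

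Of 29 tested members of a list of other vasoactive peptides, receptors and enzymes, 4 rose and 8 fell in OIR WT (median -0.23), and 2 rose and 5 fell in OIR KO (median 0.04). The background was 8.04% risen and 7.92% fallen in OIR WT and 4.75% and 5.69% in OIR KO, and the 2 risen in OIR KO are near it. Adm, the vasodilator adrenomedullin, rose from 0.726 ± 0.156 to 31.6 ± 2.88 FPKM in OIR WT (log2 4.71, SE 0.37, limma adjusted p = 0.000505) and to 19.9 ± 13.0 in OIR KO (log2 3.88, adjusted p = 0.00180). Npy, neuropeptide Y, rose in OIR WT (log2 0.54, adjusted p = 0.0424), and its log2 difference in OIR KO was 0.17 (adjusted p = 0.519). Vip, the vasodilator vasoactive intestinal peptide, fell from 7.24 ± 1.12 to 3.63 ± 0.443 FPKM in OIR WT (log2 -0.90, adjusted p = 0.00371) and to 3.63 ± 0.125 in OIR KO (adjusted p = 0.00542). Gucy1b1, a subunit of the nitric oxide receptor guanylate cyclase, fell from 32.8 ± 1.14 to 21.4 ± 2.19 and 21.2 ± 3.35 FPKM (log2 -0.61 and -0.63, adjusted p = 0.00938 and 0.0113). Vipr2, a receptor of vasoactive intestinal peptide, fell in OIR WT (log2 -0.60, adjusted p = 0.0316), and its log2 difference in OIR KO was -0.37 (adjusted p = 0.166). The Npy and Vipr2 calls were lost without every library but OIR WT 2 (adjusted p = 0.0515 to 0.145 and 0.0632 to 0.0971). The count of fallen genes in OIR WT went to 4 without RA WT 2 and 5 without RA WT 3 or OIR WT 1, and that in OIR KO to 3 without RA WT 3 or OIR KO 1. Edn2 and Adm, a constrictor and a dilator, both rose in each retinopathy group, with Edn2 at 90.1 and Adm at 31.6 FPKM in OIR WT.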

How the data were processed

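Retinal RNA was extracted with Trizol and sequenced after library preparation with the NEBNext Ultra kit, per the labels' protocols. Per the submitters' processing notes, reads were aligned to GRCm38 with HISAT2. No source used here states the HISAT2 version, the program that computed FPKM, its strand setting or its gene models, so "not given in the sources used here" holds for each. The values analysed are FPKM as the authors deposited them, in a single table with a column for each library. Columns were matched to groups through the labels.

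The scale was log2(FPKM + 0.5), with libraries not rescaled. Genes with at least 0.5 FPKM in at least 3 of 9 libraries (15678) were fitted with limma 3.58.1 in R 4.3.3, with 1 mean per group, a mean-variance trend and robust moderation. Tests were two-sided, with Benjamini-Hochberg adjustment over the 15678 genes and a threshold of 0.05. The script was tested on simulated data. Counts were not at hand, so no count model was run. Shares were compared by exact permutation tests.

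The 7 genes and all lists were chosen with earlier results of these data known. From each pathway list the text names up to 3 risen and 3 fallen genes, those called in OIR WT with the greatest log2 change and a mean of at least 1 FPKM, and it names the profiles nearest to each called gene. Pcsk6, Stat3, Osmr and Gfap lie outside that rule and were named after their values were seen, as were the genes marked so in the text. RefSeq promoters (GRCm38.p6) matched all 7 symbols. Alternatives were other pseudocounts, filters, scalings, moderation, samples, a replicate block, a Y-linked covariate and leaving out each library.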

Additional observations from a re-analysis of the deposited data

How the results depend on the processing

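Edn2 was called against room air under every alternative run. For the 6 tested genes, 14 values reversed sign, all of differences that were not called. With the filter at 1 FPKM, Ece2 was called in OIR WT (-0.37, adjusted p = 0.0496) and 13 genes were called between OIR KO and OIR WT. With plain empirical Bayes moderation, 13 genes were called there and Ednrb was called in OIR KO against RA WT (0.42, adjusted p = 0.0378). With only the RA WT and OIR WT libraries, Edn1 was called (1.42, adjusted p = 0.00428). With the Y-linked covariate, 1581 genes were called in OIR WT, Ednra was not (0.88, adjusted p = 0.0638), Ece1 in OIR WT stood at -0.00 and Ece2 between OIR KO and OIR WT at 0.02. Quantile normalization put that Ece2 difference at 0.01. The cause of these changes was not tested. The fit of 2 groups holds fewer samples and also leaves out the spread of the third group. For Edn1 the SD was 3.01 FPKM in OIR KO, 0.329 in RA WT and 1.30 in OIR WT.

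With the replicate number as a block, Ednrb was not called in OIR WT (0.56, adjusted p = 0.0515), 1081 genes were called in OIR KO against RA WT and 8 between OIR KO and OIR WT. Samples with the same number had correlations of -0.35 to 0.13 in their deviations from group means, and in 2 of 18 cases a sample correlated best with its own number, so they share only a number.

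Leaving out 1 library at a time, the genes called ranged from 1039 to 2164 in OIR WT, from 697 to 1792 in OIR KO against RA WT, and from 7 to 42 between OIR KO and OIR WT. In OIR WT against RA WT, Ednra ranged from 0.83 to 1.04, Ednrb from 0.52 to 0.63, Ece1 from -0.01 to 0.08 and Ece2 from -0.44 to -0.30. In OIR KO against RA WT, Ece1 ranged from -0.08 to 0.06 and Ece2 from -0.47 to -0.31. In OIR KO against OIR WT, Edn2 ranged from -1.55 to -0.17, Edn1 from -1.35 to -0.33, Ednra from -0.10 to 0.35, Ece1 from -0.11 to 0.03 and Ece2 from -0.10 to 0.07. There the share of Edn2 differed by -2.4 to 3.3 percentage points, that of Ednrb by -9.5 to -1.4 and that of Ece1 by -3.0 to 0.9. With n = 3 and unknown absolute depth, small differences between the genotypes could not be resolved.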
